A study of Mus musculus with 14 samples.

Results

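Interferon-stimulated genes are the genes that a cell switches on when an interferon binds its receptor, and their level was examined in microglia sorted from the dorsal horn of the lumbar spinal cord. The set held 49 genes, its members, identified by symbol. Of these, 48 had a row among the 14329 genes of the deposited table, and Ifi44 was not analysed here. A total of 45 were among the 12645 genes that passed the filter (10 reads or more in 7 or more of 14 libraries), whereas Oas2, Oas3 and Iigp1 were not. The genes that passed comprised 36 of the Ifit/Oas/Mx type, best known for induction by type I interferon, 7 of the Gbp/Irgm type (guanylate-binding proteins and immunity-related GTPases), best known for induction by interferon-γ, and 2 placed in neither type, Cxcl10 and Ifi30.

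Microglia were isolated from 6-month-old male and female mice, either wild type (WT, C57BL/6) or TASTPM. TASTPM mice are heterozygous for human mutant transgenes, APP among them, under the murine Thy-1 promoter, which drives expression in neurons rather than in microglia. Mice were given arthritogenic serum of K/BxN mice (K/BxN ST, serum transfer), which causes joint inflammation, or serum pooled from KRN/C57 mice (Control ST), and tissue was collected on day 5. The groups were WT Control ST (n = 3), WT K/BxN ST (n = 4), TASTPM Control ST (n = 3) and TASTPM K/BxN ST (n = 4), each sample being RNA of 2000 CD45low CD11b+ CX3CR1+ cells sequenced in bulk. In such samples, a change in the number of cells of a type cannot be told apart from a change in RNA per cell. The 4 libraries of TASTPM K/BxN ST carry their labelled replicate numbers, whereas the others are numbered by column position in the deposited table, and a shared number links no libraries of different groups.

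Type I interferons act through the receptor IFNAR and the kinases JAK1 and TYK2. STAT2 and IRF9 then act in a complex that binds the interferon-stimulated response element (ISRE) of target promoters. Interferon-γ acts through IFNGR, and its target promoters carry the gamma-activated site (GAS). In the brain and spinal cord, microglia both sense nucleic acids and respond to interferon, and interferon-responsive microglia are a recognised state in ageing and amyloid models.

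Promoter sequences are shown for 6 members whose window held an ISRE core, taken by the smallest limma p in either serum comparison from those that the selection rule gives by library, so that the element can be read beside the level of its gene. The ISRE core was searched as GAAANNGAAA and the GAS as TTCNNNGAA, each on both strands, in the 250 bases before the annotated start in RefSeq (GRCm38.p6), a table that held 36 of the 48 members. An ISRE core was present for 19 of 36 members (52.8%), against 3.46% of all 27025 genes of that table. It was present for 12 of 27 Ifit/Oas/Mx type members (44.4%) and 6 of 7 Gbp/Irgm type members (85.7%). A GAS match was present for 8 of 36 members (22.2%) against 8.13% of all genes. It was present for 5 of 27 Ifit/Oas/Mx type members (18.5%) and 3 of 7 Gbp/Irgm type members (42.9%). Capitals mark the bases of every match (ISRE core, and 1 GAS in Oas1a) in the sequences that follow, each printed 5′ to 3′ on the strand of its gene, so that a match on the opposite strand (Gbp2 and Slfn8) reads as the reverse complement of the core. Oas1a (chr5:120907526-120907775, minus strand) held matches 20 and 14 bases before the start, which overlap each other, and a GAS at 98 bases. Gbp2 (chr3:142620413-142620662, plus strand) held 1 match at 59 bases. Cxcl10 (chr5:92348890-92349139, minus strand) held 1 at 213 bases. Slfn5 (chr11:82951852-82952101, plus strand) held 1 at 155 bases and Slfn8 (chr11:83020723-83020972, minus strand) held 1 at 136 bases. Irgm1 (chr11:48871421-48871670, minus strand) held matches at 30 and 24 bases, which overlap each other.
Oas1a: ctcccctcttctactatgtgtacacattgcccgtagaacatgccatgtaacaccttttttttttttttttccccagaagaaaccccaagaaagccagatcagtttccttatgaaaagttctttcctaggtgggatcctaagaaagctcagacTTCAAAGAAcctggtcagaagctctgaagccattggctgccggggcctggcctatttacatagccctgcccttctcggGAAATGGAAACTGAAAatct
Gbp2: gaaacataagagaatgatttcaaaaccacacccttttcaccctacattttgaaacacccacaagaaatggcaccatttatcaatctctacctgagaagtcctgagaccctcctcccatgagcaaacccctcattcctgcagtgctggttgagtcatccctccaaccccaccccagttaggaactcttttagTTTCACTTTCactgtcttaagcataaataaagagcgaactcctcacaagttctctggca
Cxcl10: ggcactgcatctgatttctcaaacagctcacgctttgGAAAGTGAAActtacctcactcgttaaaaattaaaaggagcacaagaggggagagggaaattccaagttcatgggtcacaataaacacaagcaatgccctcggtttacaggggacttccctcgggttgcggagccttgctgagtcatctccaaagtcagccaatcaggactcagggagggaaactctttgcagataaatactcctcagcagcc
Slfn5: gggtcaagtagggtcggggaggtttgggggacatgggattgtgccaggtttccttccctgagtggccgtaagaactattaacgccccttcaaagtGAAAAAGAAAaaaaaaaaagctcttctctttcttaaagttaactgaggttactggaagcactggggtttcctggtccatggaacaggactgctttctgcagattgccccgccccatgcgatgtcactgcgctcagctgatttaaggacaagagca
Slfn8: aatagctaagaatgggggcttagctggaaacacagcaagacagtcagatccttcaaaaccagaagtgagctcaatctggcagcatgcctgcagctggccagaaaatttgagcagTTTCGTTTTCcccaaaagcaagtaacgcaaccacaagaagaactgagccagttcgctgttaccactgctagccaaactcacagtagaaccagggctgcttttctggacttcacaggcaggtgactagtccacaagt
Irgm1: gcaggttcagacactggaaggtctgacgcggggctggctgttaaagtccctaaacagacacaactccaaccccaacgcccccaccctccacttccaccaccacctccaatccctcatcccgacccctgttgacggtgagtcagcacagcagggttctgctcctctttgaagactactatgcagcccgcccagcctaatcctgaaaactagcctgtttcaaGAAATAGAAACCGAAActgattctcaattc
These 6 genes include Gbp2 and Oas1a, whose levels spanned a wide range between libraries, and Irgm1, which stayed within a narrow one. The windows of Irf7, Slfn2, Oasl2 and Ifi47 held no match of either motif, which says only that these letters are not in this window. Zbp1, Ifi204, Dhx58 and Usp18 were not in the promoter table.

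Library totals were 14223015 to 20239175 reads assigned to genes. In 4 libraries, numbers 1 and 2 of WT K/BxN ST and 1 and 2 of TASTPM K/BxN ST, the summed share of 15 neutrophil and monocyte marker genes was 1.93%, 0.433%, 1.94% and 1.77% of the library, against at most 0.0165% in the other 10. All 15 markers were in the table. Ly6c2 and Ccr2, which define classical monocytes, reached 12898 to 29133 and 8537 to 27035 normalized counts there and at most 17.8 and 86.0 elsewhere. Ly6g, which defines neutrophils, was at 868, 440 and 567 normalized counts in WT library 1 and TASTPM libraries 1 and 2, and at 0 in WT library 2. Border-associated macrophage markers (6 genes) took 0.208%, 0.117%, 0.197% and 0.0691% of these 4 libraries. Most of that was F13a1, at 32194, 17938, 30878 and 10358 normalized counts. Lyve1 was at 306, 148, 331 and 286 there, but at 476 and 351 in TASTPM Control ST libraries 2 and 3. Cbr2 was at 180 to 640 there and at most 121 elsewhere. The 8 microglial markers took 1.94% to 4.46% of these 4 libraries and more, up to 6.67%, of each of the other 10. The sort kept CD45low CX3CR1+ cells and, by the study's text, those negative for Ly6C and CCR2, a gate that would leave out most neutrophils and monocytes. The sex-linked genes Xist and Ddx3y were both above 100 normalized counts in 2 libraries, number 3 of WT Control ST and number 3 of TASTPM Control ST.

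Levels are given as normalized counts, the reads of a gene divided by 1 scaling factor of the library, so that they compare a gene between libraries and not different genes. Differences are log2 fold changes ± SE on the scale log2(normalized count + 1) from a limma fit of all 14 libraries, with p-values adjusted over the 12645 genes by Benjamini-Hochberg. Calls needed an adjusted p below 0.05 together with a log2 fold change beyond 1 in either direction. The study's methods give replicates as individual mice, although the labels tie no library to an animal. For single genes a two-sided exact permutation p is added, which can go no lower than 0.0286 for 4 against 3 or 4 against 4 libraries and 0.1 for 3 against 3.

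No member was called by limma in any of the 5 comparisons, where all genes gave a share called of 0.00791% for the serum contrast in WT mice (K/BxN ST against Control ST), and 0% for the same contrast in TASTPM, for the difference between the genotypes in that contrast, and for TASTPM against WT under Control ST and under K/BxN ST. In WT, 5 of 45 members had an unadjusted p below 0.05, all higher after K/BxN ST (11.1%, against 4.77% of all genes). In TASTPM, 7 members were higher at that level (15.6%, against 2.62% of all genes) and 1 was lower (2.22%, against 1.6%). The corresponding counts were 1 of 45 for the difference between the genotypes (3.04% of all genes), 2 for TASTPM against WT under Control ST (5.57%) and 1 under K/BxN ST (1.91%). The smallest limma adjusted p of any member was 0.330 for WT and 0.964 for TASTPM. Tests of the recovered reads called no member either when the same filter was used, with 0% of all genes called by edgeR in each comparison and 1%, 0.127%, 0.0949%, 0.324% and 0% by DESeq2 in the same order. The members at an unadjusted p below 0.05 numbered 4, 8, 0, 3 and 2 of 45 by edgeR, where the shares of all genes were 6.18%, 4.03%, 2.6%, 4.6% and 1.46%. By DESeq2 they numbered 6, 9, 1, 4 and 2, where the shares were 7.92%, 5.46%, 3.18%, 5.72% and 1.92%.

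**Figure D1:**
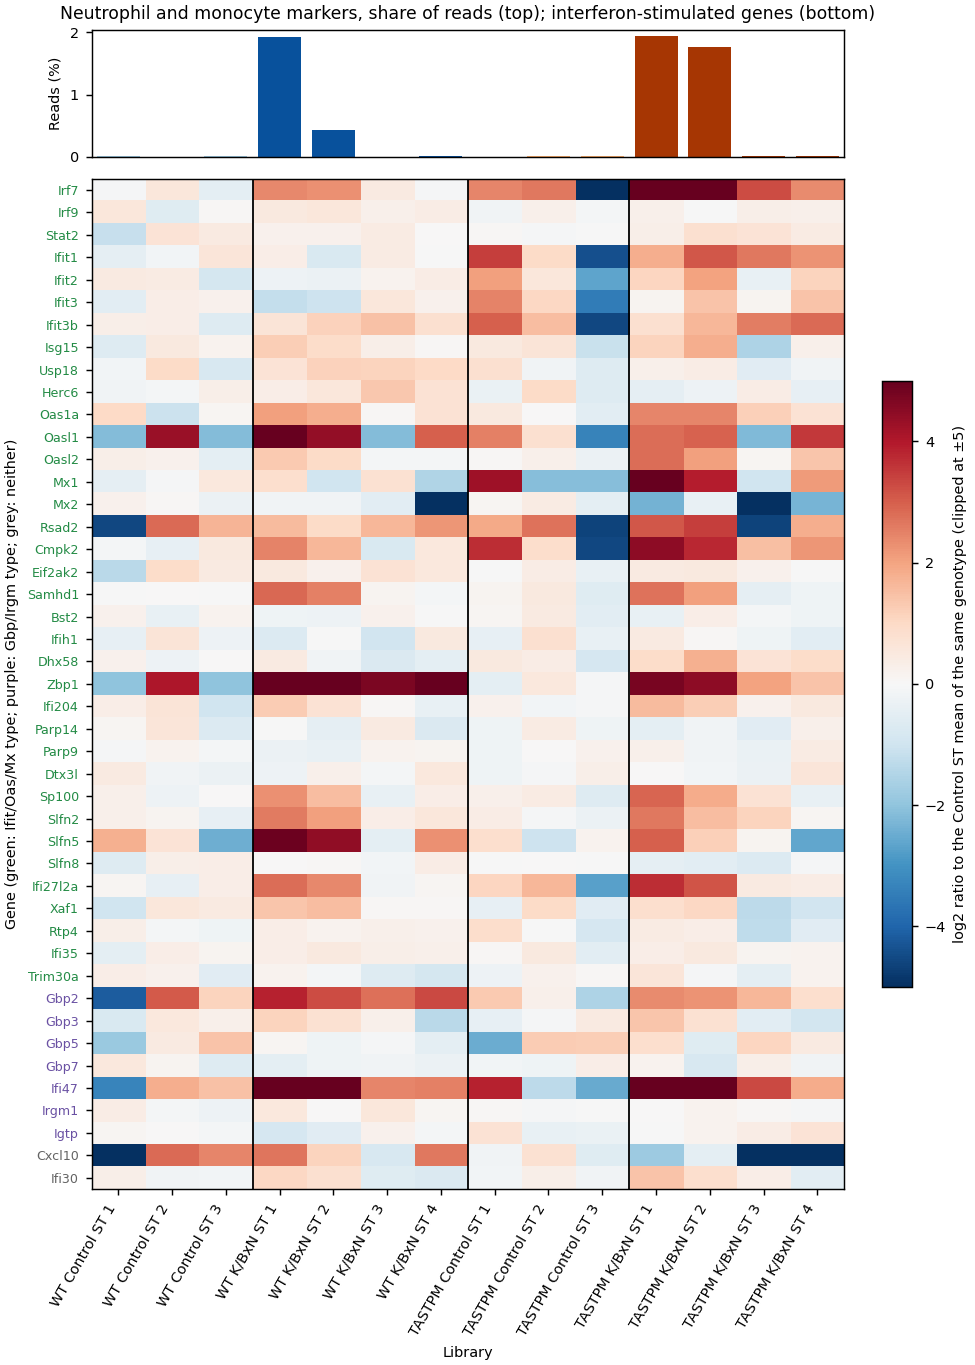
Log2 ratio of each of the 45 members that passed the filter (rows) in each of the 14 libraries (columns) to the mean of Control ST libraries of the same genotype, with colours limited to 5 in either direction, and above it the neutrophil and monocyte marker share of each library in percent. Libraries 1 and 2 of both K/BxN ST groups hold the warmest colours of many rows, and these are the 4 libraries with marker shares of 0.433% to 1.94%.

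High levels in the same 4 libraries recurred across roles. For 13 of 36 Ifit/Oas/Mx type members (36.1%), 3 of 7 Gbp/Irgm type members (42.9%) and Ifi30, libraries 1 and 2 of K/BxN ST lay above every Control ST library in both genotypes. The share over all genes tested was 11.3%. The 13 were Irf7, Isg15, Oas1a, Oasl1, Oasl2, Cmpk2, Samhd1, Zbp1, Ifi204, Sp100, Slfn2, Slfn5 and Ifi27l2a, and the 3 were Gbp2, Gbp3 and Ifi47. In many of these genes library 3 or 4 was above Control ST as well. Members with libraries 1 and 2, and neither 3 nor 4, above every Control ST library in both genotypes numbered 2 of 36 (5.56%, Isg15 and Ifi27l2a) and 1 of 7 (14.3%, Gbp3), against 4.53% of all genes, a share near the background for the Ifit/Oas/Mx type. These are the 4 libraries with the high marker shares given above, and the part of that RNA in the members' levels was not tested. A sex-linked score (log2 level of Xist minus the mean log2 level of 4 Y-linked genes) was -5.23 and -8.93 in libraries 1 and 2 of WT K/BxN ST against 10.8 and 11.4 in libraries 3 and 4, so that in this group a difference between these pairs of libraries cannot be told apart from sex. In TASTPM K/BxN ST the score was -5.06, -8.57 and -7.55 in libraries 1 to 3 and positive in library 4, so that there it set library 4 apart. The TASTPM Control ST scores were 11.7, 11.8 and -1.33, so that the TASTPM serum contrast stands beside a difference in sex as well. With this score as a covariate, the median log2 fold change of the Ifit/Oas/Mx type was 0.51 in WT and 0.44 in TASTPM, beside 0.46 and 0.67 without it. In TASTPM the covariate took the log2 fold change of Zbp1 from 3.16 to 2.16, of Oas1a from 1.70 to 1.15, of Slfn2 from 1.35 to 0.62 and of Ifi204 from 0.88 to 0.43. It moved Irf7 there only from 4.20 to 4.12, and Stat2 from 0.54 to 0.59. In WT it took Zbp1 from 6.25 to 6.70 and Slfn2 from 1.39 to 1.71, but Ifit3b from 1.01 to 0.58. Libraries 3 and 4 of both groups, with marker shares of at most 0.00790%, are therefore described separately.

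Zbp1, a sensor of Z-form nucleic acids (chr2:173033815-173060724, minus strand, GRCm39), had the smallest p among members. In WT it was at 0, 65.4 and 0 normalized counts in Control ST and at 792, 543, 105 and 198 in K/BxN ST. In TASTPM it was at 18.8, 38.9 and 25.4 in Control ST and 737, 608, 110.4 and 72.2 in K/BxN ST. All 4 K/BxN ST libraries exceeded all 3 Control ST libraries in both genotypes, libraries 3 and 4 included, although those were well below libraries 1 and 2. This gave a log2 fold change of 6.25 ± 1.33 in WT (limma, p = 0.000303, adjusted p = 0.330, exact permutation p = 0.0286) and 3.16 ± 1.33 in TASTPM (limma, p = 0.0317, adjusted p = 0.964, exact permutation p = 0.0571). In WT, 2 of the 3 Control ST libraries were at 0, so that the size depended on the pseudocount, from 4.03 with 10 to 6.92 with 0.5. DESeq2 without the filter on low counts called Zbp1 in WT (log2 fold change 4.23, adjusted p = 0.0280), with 1.92% of all genes called. Leaving out WT Control ST library 2, the one at 65.4 normalized counts, also led limma to call it (log2 fold change 8.27, adjusted p = 0.00473), with 0.111% of all genes called. Over the other settings tried, the adjusted p ranged from 0.163 to 1.

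**Figure D2:**
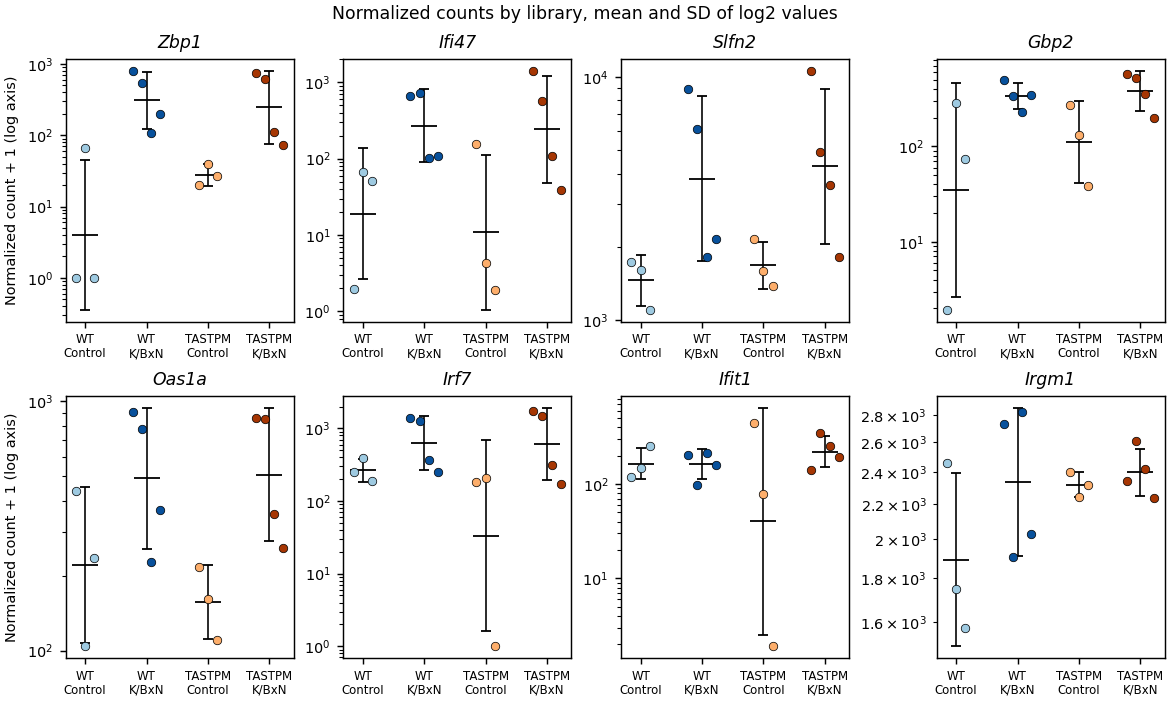
Normalized count + 1 on a log axis for Zbp1, Ifi47, Slfn2, Gbp2, Oas1a, Irf7, Ifit1 and Irgm1 in each library of the 4 groups, with the mean ± SD of the log2 values. Zbp1 in K/BxN ST lies between 72.2 and 792 normalized counts, above the Control ST libraries at 0 to 65.4, whereas Irgm1 lies between 1572 and 2819 in all 14 libraries.

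The other nucleic acid sensors were Ifih1 and Dhx58, RIG-I-like receptors of double-stranded RNA, and Ifi204, a DNA sensor. Ifi204 was at 798, 631 and 669.6 normalized counts in the TASTPM Control ST libraries and 2091, 1647, 808 and 978 in those of K/BxN ST, groups that did not overlap (log2 fold change 0.88 ± 0.45, limma p = 0.0683, exact permutation p = 0.0857). In WT it was at 890.4, 1124 and 357 in Control ST and 1722, 1160.2, 736 and 555 in K/BxN ST, and the groups overlapped. Part of its exonic sequence (11.8% of 100-base words) is shared with other genes, mostly Ifi211, so its reads are uncertain. Dhx58 was at 535, 389.8 and 465 normalized counts in the WT Control ST libraries and 629.6, 405, 278 and 324 in those of K/BxN ST. The TASTPM libraries held 229, 212 and 90.9 in Control ST and 311, 564, 266 and 315 in K/BxN ST, without overlap. TASTPM Control ST was thus the group that stood lowest, below every other library. K/BxN ST against Control ST gave log2 fold changes of 1.08 ± 0.41 in TASTPM (limma p = 0.0185, exact permutation p = 0.0286) and -0.24 ± 0.41 in WT (limma p = 0.567, exact permutation p = 0.486). Without TASTPM Control ST library 3 the TASTPM value was 0.66. The difference between these responses was 1.32 ± 0.58 (limma, adjusted p = 0.999), the smallest p of any member in that comparison. TASTPM against WT under Control ST gave -1.48 ± 0.44 (limma p = 0.00411, adjusted p = 0.644, exact permutation p = 0.100, the smallest that 3 against 3 libraries can give).

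Among the transcription factors, Irf7, which drives the amplifying phase of the type I response, was at 253, 387 and 185 normalized counts in the WT Control ST libraries and 1383, 1268, 363 and 252 in those of K/BxN ST. Values in TASTPM were 181, 204 and 0 for Control ST and 1752, 1488, 317 and 169 for K/BxN ST. Libraries 1 and 2 of K/BxN ST were the highest in each genotype, libraries 3 and 4 lay within the range of Control ST except TASTPM library 3, which was above it, and TASTPM Control ST library 3 was at 0. The log2 fold change was 1.26 ± 1.46 in WT (limma p = 0.401, exact permutation p = 0.257) and 4.20 ± 1.46 in TASTPM (limma p = 0.0119, adjusted p = 0.964, exact permutation p = 0.114). Without TASTPM Control ST library 3, the TASTPM value was 1.67. Stat2, a subunit of the type I complex, was at 394, 365 and 373 in the TASTPM Control ST libraries and 466, 660.1, 600.3 and 495 in those of K/BxN ST, without overlap (log2 fold change 0.54 ± 0.37, limma p = 0.159, exact permutation p = 0.0571), but at 186, 658 and 559.7 (Control ST) against 478, 470.3, 538 and 412 (K/BxN ST) in WT, which overlapped. Irf9, the DNA-binding subunit of that complex, ranged from 1297 to 2948 normalized counts over the 14 libraries (log2 fold change 0.43 ± 0.24 in WT and 0.19 ± 0.24 in TASTPM).

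The OAS family makes or resembles the enzymes that make 2′-5′ oligoadenylate, the activator of RNase L. Oas1a (chr5:121031070-121046449, minus strand, GRCm39), whose promoter is printed above, was at 434, 103 and 235 normalized counts in the WT Control ST libraries and 909, 776, 226 and 364 in those of K/BxN ST. In TASTPM it was at 216, 159.9 and 109 in Control ST and 859, 847, 352 and 257 in K/BxN ST, without overlap. This gave a log2 fold change of 1.16 ± 0.60 in WT (limma p = 0.0745, exact permutation p = 0.200) and 1.70 ± 0.60 in TASTPM (limma p = 0.0134, exact permutation p = 0.0571). Oas1a shares 9.54% of its 100-base words with other genes, mostly Oas1g. Oasl2, an OAS-like protein, was at 174, 198 and 136 in the TASTPM Control ST libraries and 1177, 693, 177 and 437 in those of K/BxN ST, and at 475, 459 and 276 (Control ST) against 969, 755, 367 and 366 (K/BxN ST) in WT. Its log2 fold change was 1.58 ± 0.54 in TASTPM (limma p = 0.0110, exact permutation p = 0.0857) and 0.51 ± 0.54 in WT (limma p = 0.360, exact permutation p = 0.314), again with libraries 1 and 2 highest. Oas2 and Oas3 failed the filter and were chosen for mention after their values were seen. Oas3 was at 0 in all 6 Control ST libraries, and after K/BxN ST at 144, 137, 21.5 and 0 normalized counts in WT mice and at 174, 164, 0 and 0 in TASTPM mice. Oas2 was at 0 in 5 of the 6 Control ST libraries, and after K/BxN ST at 76.8, 64.7, 43.0 and 0 in WT mice and at 44.7, 4.76, 0 and 0 in TASTPM mice. Libraries 1 and 2 held most of the reads of both genes. A count of 0 allows up to 3 reads, which were worth at most 3.58 normalized counts.

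The Ifit family, which binds foreign RNA, lies in 1 cluster on chromosome 19 (34527932 to 34632174, GRCm39) and was not raised in libraries 1 and 2 of both genotypes. Ifit1 was at 118, 148 and 251 normalized counts in the WT Control ST libraries and 205, 96.5, 215 and 160.3 in those of K/BxN ST. The TASTPM libraries held 439, 76.6 and 0.909 in Control ST and 139, 345, 251 and 192 in K/BxN ST. The K/BxN ST libraries fell within the range of Control ST of their genotype, apart from WT library 2 just below it, and the widest spread was inside TASTPM Control ST. Ifit1, Ifit2, Ifit3 and Ifit3b were at their highest TASTPM level in Control ST library 1 and at their lowest in Control ST library 3, with Ifit2 at 821, 286 and 30.9 and Ifit3 at 1211, 451 and 18.2 in libraries 1 to 3. Their TASTPM log2 fold changes of 0.79 to 2.45 are set against a Control ST mean that includes library 3. Without that library the values of Ifit2, Ifit3 and Ifit3b were negative, and that of Ifit1 was smaller but positive. Ifit3b was without overlap in WT, at 75.0, 77.1 and 38.2 normalized counts in Control ST and 93.9, 135, 171 and 107 in K/BxN ST (log2 fold change 1.01 ± 1.28, limma p = 0.441, exact permutation p = 0.0286), and at 184, 67.7 and 0 (Control ST) against 39.5, 73.2, 135 and 166 (K/BxN ST) in TASTPM. Ifit3b and Ifit3 share 27.2% and 16.7% of their 100-base words with each other, so reads may be split between them.

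Of the ISG15 pathway, Isg15 encodes the ubiquitin-like modifier, Usp18 the protease that removes it and restrains IFNAR, and Herc6 the ligase that attaches it in mice. Usp18 was at 219, 465 and 139 normalized counts in the WT Control ST libraries and 390.2, 538, 523 and 479 in those of K/BxN ST, with 3 of 4 K/BxN ST libraries above every Control ST library (log2 fold change 0.98 ± 0.43, limma p = 0.0369, exact permutation p = 0.0571). Values in TASTPM were 680.0, 353 and 254 for Control ST and 469, 505, 269 and 349.7 for K/BxN ST (log2 fold change -0.03 ± 0.43). Herc6 was at 132, 137 and 179.6 in the WT Control ST libraries and 189, 221, 375 and 244 in those of K/BxN ST, without overlap (log2 fold change 0.75 ± 0.43, limma p = 0.103, exact permutation p = 0.0571), and its TASTPM groups, at 217, 525 and 175 (Control ST) and 197, 228, 354 and 206 (K/BxN ST), overlapped. Herc6 shares 9.13% of its 100-base words with Gm45193. Without WT Control ST library 3 the WT value of Usp18 was 0.58. Both genes were at or near their highest WT level in K/BxN ST library 3, which had few marker reads.

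The Schlafen genes lie on chromosome 11 and include regulators of immune cell quiescence. Slfn2 (chr11:82955609-82961504, plus strand, GRCm39) was at 1742, 1607 and 1107 normalized counts in the WT Control ST libraries and 8896, 6095, 1812 and 2149 in those of K/BxN ST, without overlap. In TASTPM it was at 2149.7, 1598 and 1387 in Control ST and 10552, 4887, 3598 and 1815 in K/BxN ST. Libraries 1 and 2 stood above the rest, and library 4 of TASTPM K/BxN ST lay within the range of Control ST. K/BxN ST against Control ST gave log2 fold changes of 1.39 ± 0.57 in WT (limma p = 0.0272, exact permutation p = 0.143) and 1.35 ± 0.57 in TASTPM (limma p = 0.0311, exact permutation p = 0.0857). Slfn5 was at 89.0, 41.1 and 3.82 (Control ST) against 784, 563, 17.9 and 128 (K/BxN ST) in WT and at 205, 55.5 and 129 (Control ST) against 921, 263, 126 and 18.1 (K/BxN ST) in TASTPM, with WT library 3 and TASTPM libraries 3 and 4 of K/BxN ST below the highest Control ST library (log2 fold change 2.78 ± 1.41 in WT and 0.44 ± 1.41 in TASTPM). The WT value was 1.56 without WT Control ST library 3. Slfn8 was the only member lower without overlap. It was at 1466, 1499 and 1446 in the TASTPM Control ST libraries and 1076, 1033, 919.9 and 1401 in those of K/BxN ST (log2 fold change -0.43 ± 0.25, limma p = 0.114, exact permutation p = 0.0571), and at 641, 1245 and 1282 (Control ST) against 1026, 1056, 907 and 1319 (K/BxN ST) in WT.

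By role, the log2 fold changes were positive for all 3 transcription factors and all 3 tested OAS genes in both genotypes. For the Ifit family they were positive for 2 of 4 in WT and 4 of 4 in TASTPM, and for the ISG15 pathway for 3 of 3 and 1 of 3. The Ifit count in TASTPM rested on Control ST library 3, without which only Ifit1 stayed positive. Antiviral effectors (Mx1, Mx2, Rsad2, Cmpk2, Eif2ak2, Samhd1 and Bst2) were positive for 4 of 7 in WT, from -1.80 to 1.61, and for 5 of 7 in TASTPM, from -2.93 to 2.98. The lower end in TASTPM was Mx2 and the upper end Cmpk2, a mitochondrial nucleotide kinase, at 309, 42.2 and 0 normalized counts in Control ST against 525, 319.6, 65.8 and 109 in K/BxN ST. The Cmpk2 value was smaller without Control ST library 3, the one at 0. The upper end in WT was Rsad2, at 0.937, 315 and 146 in Control ST against 135, 86.8, 140 and 207 in K/BxN ST. It was negative without WT Control ST library 1. Parp14 and Parp9, ADP-ribosyltransferases, with Dtx3l and Sp100 were positive for 2 of 4 and 3 of 4. The remaining Ifit/Oas/Mx type genes (Ifi27l2a, Xaf1, Rtp4, Ifi35 and Trim30a) were positive for 4 of 5 and 3 of 5, and none of them had a p below 0.05. Guanylate-binding proteins were positive for 2 of 4 in WT and 3 of 4 in TASTPM, and immunity-related GTPases for 2 of 3 and 3 of 3. Isg15, chosen for mention after its values were seen, ranged from 37.6 to 396 normalized counts over the 14 libraries (log2 fold change 0.63 ± 0.73 in WT and 0.41 ± 0.73 in TASTPM).

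In all, 5 of 45 members were higher without overlap in WT (Ifit3b, Herc6, Zbp1, Slfn2 and Ifi47), against 3.67% of all genes, and none was lower, against 3.71%. In TASTPM, 5 were higher (Stat2, Oas1a, Dhx58, Zbp1 and Ifi204), against 2.67% of all genes, and Slfn8 was lower, against 2.74%. Zbp1 was the gene on both lists.

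Other members highest in libraries 1 and 2 of K/BxN ST were Samhd1, a dNTP hydrolase, Sp100, a nuclear body protein, and Ifi27l2a, all named after their values were seen. Samhd1 was at 761, 772 and 763 normalized counts in the WT Control ST libraries and 5571, 4384, 834 and 719.6 in those of K/BxN ST, and at 994, 1249 and 588 (Control ST) against 5851, 3732, 653 and 768 (K/BxN ST) in TASTPM. After K/BxN ST, Sp100 was at 3336, 1993, 539.9 and 865 in WT mice and 3731, 1782, 804 and 379 in TASTPM mice, against 311 to 815 in Control ST. Ifi27l2a was at 2899, 2227, 371 and 451 and 2589, 1765, 270.2 and 255 in the same groups, against 29.1 to 626 in Control ST. In these genes libraries 3 and 4 lay in the range of Control ST or close to it, and limma gave p-values of 0.0820 to 0.248 in the serum comparisons. The Mx proteins, GTPases that trap viral ribonucleoproteins, were low. Mx1 was at 0 to 179 and Mx2 at 0 to 133 normalized counts over the 14 libraries. Bst2, which tethers budding virions and was second only to Ifi30 in Control ST level per kilobase of exon, had log2 fold changes of -0.06 ± 0.26 in WT and -0.08 ± 0.26 in TASTPM.

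**Figure D3:**
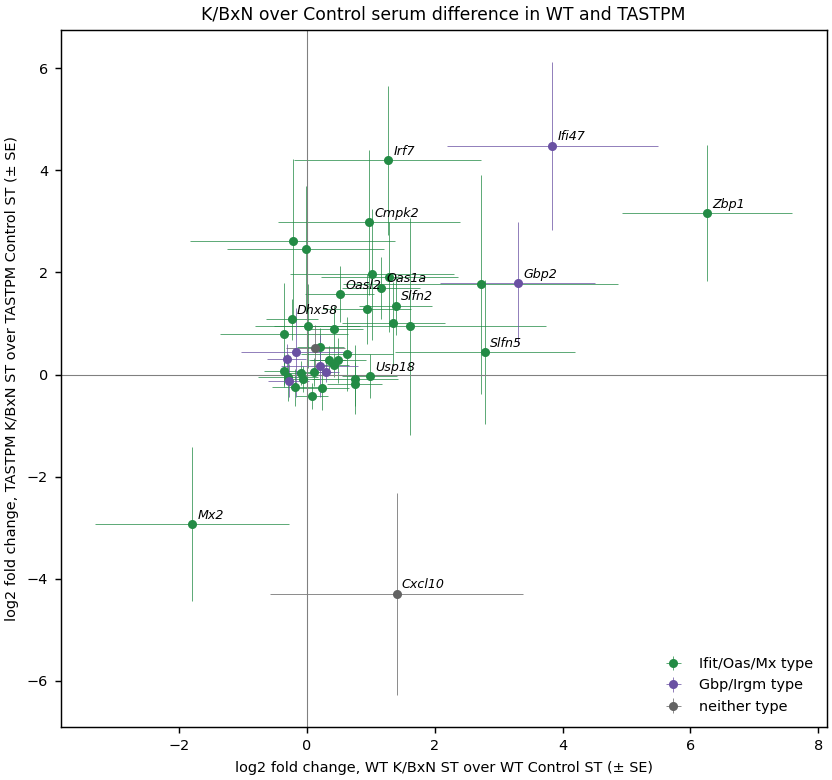
Log2 fold change ± SE for K/BxN ST over Control ST in WT mice (x axis) and TASTPM mice (y axis) for each of the 45 members, coloured by type. Most points lie in the upper right quadrant, 26 of 45 being positive in both genotypes, with Zbp1 and Ifi47 farthest from the origin and Cxcl10 at the bottom.

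Genes of the Gbp/Irgm type encode GTPases that act against intracellular pathogens. Ifi47 (chr11:48967412-48987813, plus strand, GRCm39) was at 0.937, 66.2 and 50.6 normalized counts in the WT Control ST libraries and 658, 736, 100.3 and 108 in those of K/BxN ST, without overlap. The TASTPM libraries held 154, 3.33 and 0.909 in Control ST and 1409, 569.7, 107 and 38.4 in K/BxN ST, where libraries 3 and 4 lay below the highest Control ST library. The log2 fold change was 3.84 ± 1.65 in WT (limma p = 0.0342, adjusted p = 0.684, exact permutation p = 0.0286) and 4.48 ± 1.65 in TASTPM (limma p = 0.0160, adjusted p = 0.964, exact permutation p = 0.143). Gbp2 (chr3:142326349-142343779, plus strand, GRCm39) was at 0.937, 288 and 73.5 in the WT Control ST libraries and 500.4, 335, 232 and 345 in those of K/BxN ST, and at 273, 129.9 and 37.3 (Control ST) against 575, 524, 354 and 199 (K/BxN ST) in TASTPM. In WT, 1 K/BxN ST library lay below the highest Control ST library, and Control ST itself was widely spread (log2 fold change 3.30 ± 1.21, limma p = 0.0160, exact permutation p = 0.0571). Without WT Control ST library 1 the WT value was 1.22 for Gbp2 and 2.20 for Ifi47. In TASTPM the log2 fold change was 1.78 ± 1.21 (limma p = 0.162, exact permutation p = 0.0857).

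In Irgm1, Igtp and Gbp7, libraries 1 and 2 of K/BxN ST were not above Control ST in both genotypes. Irgm1, an autophagy regulator with 2 overlapping ISRE cores near its start, was at 2460.3, 1749 and 1572 normalized counts in the WT Control ST libraries and 2733, 1907, 2819 and 2027 in those of K/BxN ST. For TASTPM the values were 2398, 2244 and 2318 in Control ST and 2339.7, 2608, 2417 and 2236 in K/BxN ST. All 4 groups overlapped (log2 fold change 0.30 ± 0.20 in WT and 0.05 ± 0.20 in TASTPM). Igtp, a GTPase of the same family, was at 2275, 2143 and 2019 in the WT Control ST libraries and 1208, 1446, 2487 and 2028 in those of K/BxN ST, where libraries 1 and 2 were the lowest. Values in TASTPM were 2040.1, 939 and 964 for Control ST and 1203, 1389, 1602 and 1973 for K/BxN ST. Gbp7 was at 935, 719 and 413 (Control ST) against 462, 569, 581 and 536 (K/BxN ST) in WT and at 792, 766 and 1121 (Control ST) against 999, 508, 1090.2 and 774 (K/BxN ST) in TASTPM. Gbp7 shares 8.31% of its 100-base words with Gm43802, so its reads are uncertain. Iigp1, which failed the filter, was at 0 in 9 of 14 libraries and reached 135 normalized counts.

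The 2 members of neither type behaved differently from each other. Cxcl10, the chemokine that attracts CXCR3+ lymphocytes, was at 153, 298 and 115 normalized counts in the TASTPM Control ST libraries and 48.9, 125, 0 and 0 in those of K/BxN ST, where 2 libraries, numbers 3 and 4, were at 0. In WT it was at 0, 278 and 209 in Control ST and 245, 82.4, 21.5 and 239.9 in K/BxN ST, with 1 Control ST library at 0. This gave a log2 fold change of -4.30 ± 1.98 in TASTPM (limma p = 0.0472, adjusted p = 0.964, exact permutation p = 0.171) and 1.40 ± 1.98 in WT (limma p = 0.491, exact permutation p = 0.629), and the difference between them was -5.70 ± 2.80 (limma, adjusted p = 0.999). Without WT Control ST library 1, the one at 0, this difference was -3.06 and the WT value was negative as well. Ifi30, the lysosomal thiol reductase that prepares antigens for class II presentation, was the most abundant member per kilobase of exon. It was at 4903, 3509.8 and 3616 (Control ST) against 8229.7, 6896, 2596 and 2415 (K/BxN ST) in WT and at 2873, 3910.3 and 2801 (Control ST) against 8414, 5702, 3941 and 2192 (K/BxN ST) in TASTPM, with libraries 1 and 2 of K/BxN ST highest (log2 fold change 0.13 ± 0.46 in WT and 0.52 ± 0.46 in TASTPM).

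Over the 36 Ifit/Oas/Mx type members, the median log2 fold change was 0.46 in WT and 0.67 in TASTPM, and over the 7 Gbp/Irgm type members 0.20 and 0.30, beside 0.06 and 0.01 over all genes. Positive values were seen for 32 of 45 members in WT (71.1%, against 54.0% of all genes) and 34 in TASTPM (75.6%, against 50.4%). Across the 45 members the WT and TASTPM values had a Pearson r of 0.494 and a Spearman rho of 0.456, which is given as a description over genes that share libraries. Per library, the median log2 ratio of the Ifit/Oas/Mx type, taken to the mean of Control ST within the genotype, was 0.56, 0.58, 0.20 and 0.24 in the WT libraries after K/BxN ST and 0.88, 1.34, 0.11 and 0.31 in the TASTPM libraries. The Control ST libraries themselves were at -0.03, 0.27 and 0.01 in WT and at 0.22, 0.42 and -0.55 in TASTPM. Libraries 1 and 2 of each K/BxN ST group were therefore above all 3 Control ST libraries, and libraries 3 and 4 were not in either genotype. TASTPM Control ST library 3, whose sex-linked score was -1.33 against 11.7 and 11.8, was below both other libraries of its group for 30 of 45 members (66.7%), against 34.1% of all genes, and without it the TASTPM median of this type was 0.12 and the members at p below 0.05 went from 8 to 1. Of all 12645 genes, 342 were higher and 176 lower at that level without this library, against 331 and 202 with it. For the Gbp/Irgm type the medians per library ran from -0.08 to 0.53 in WT K/BxN ST and from -0.78 to 0.44 in WT Control ST, and these overlapped. In TASTPM they ran from 0.18 to 0.84 in K/BxN ST and from -0.07 to 0.05 in Control ST, without overlap. For both types, each Control ST library is part of the mean it is set against, which narrows the spread of the Control ST medians only. The separation of these medians from K/BxN ST was not tested. Over all genes the TASTPM medians ran from 0.01 to 0.06 in K/BxN ST and from 0.01 to 0.04 in Control ST.

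**Figure D4:**
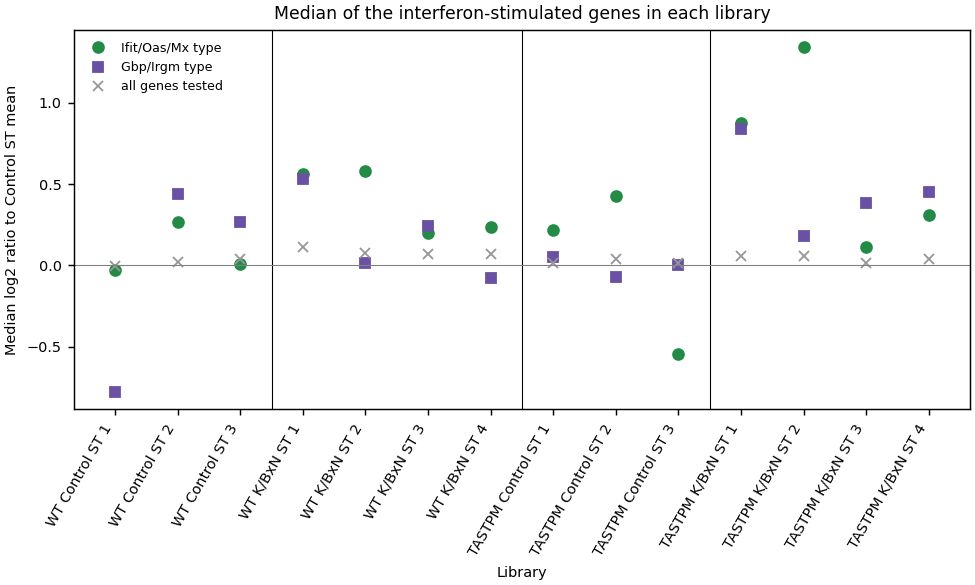
Median over genes of the log2 ratio of each library to the Control ST libraries of its genotype (their mean), for the 36 Ifit/Oas/Mx type members, the 7 Gbp/Irgm type members and all 12645 genes tested. The Ifit/Oas/Mx medians reach 0.56 to 1.34 in libraries 1 and 2 of K/BxN ST, 0.11 to 0.31 in libraries 3 and 4 and -0.55 in TASTPM Control ST library 3, whereas the medians of all genes reach at most 0.11.

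The sex-linked score defined above also differed between the Control ST groups, at -7.15, -3.63 and 3.12 in WT and 11.7, 11.8 and -1.33 in TASTPM, so that genotype differences under Control ST, those of Dhx58 above included, stand beside a difference in sex. With the score as a covariate, the log2 fold change of TASTPM against WT under Control ST was -1.40 for Dhx58, -0.91 for Oasl2 and -1.11 for Igtp.

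The difference between the genotypes in the response to K/BxN ST had a median of -0.03 for the Ifit/Oas/Mx type and 0.17 for the Gbp/Irgm type, beside -0.05 over all genes. Under Control ST, TASTPM against WT had medians of -0.09 and -0.04 (all genes 0.04), and under K/BxN ST of -0.15 and -0.01 (all genes -0.000868). All 4 Ifit genes had negative values under Control ST (-2.03 to -1.40), with TASTPM library 3 in the mean. For all 4, that library lay below every WT Control ST library, and TASTPM library 1 lay above every one. Without library 3 the values of Ifit1, Ifit3 and Ifit3b were positive, and that of Ifit2 was less negative. Igtp, by the values above, overlapped between the genotypes (log2 fold change -0.80 ± 0.32, limma p = 0.0254, adjusted p = 0.819, exact permutation p = 0.200). Oasl2 did not, its 3 TASTPM Control ST libraries lying below the 3 of WT (log2 fold change -1.22 ± 0.58, limma p = 0.0528, exact permutation p = 0.100). Dtx3l, the ubiquitin ligase partner of PARP9, was at 943, 1335, 1042 and 1626 normalized counts in WT mice and 755, 684, 613 and 1128 in TASTPM mice after K/BxN ST (log2 fold change -0.64 ± 0.26, limma p = 0.0260, adjusted p = 1.00, exact permutation p = 0.0857), and under Control ST it was at 1553, 987 and 923 in WT mice and 635, 721 and 911 in TASTPM mice. TASTPM was thus toward the lower end for Dtx3l under both sera. Gbp7 was 0.60 ± 0.29 under K/BxN ST (limma p = 0.0614, exact permutation p = 0.114) and Cxcl10 -3.53 ± 1.84 (limma p = 0.0743, exact permutation p = 0.200).

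Without the 4 libraries of high marker share, which leaves 2 libraries in each K/BxN ST group, the median of the Ifit/Oas/Mx type was 0.19 in WT and 0.16 in TASTPM, and that of the Gbp/Irgm type 0.07 and 0.53. In WT, 1 of 45 members was then higher (2.4% of all genes) and 2 were lower (1.85%) at an unadjusted p below 0.05, and in TASTPM none was higher (1.83%) and 2 were lower (2.2%). The log2 fold change of Zbp1 was 5.17 in WT and 1.71 in TASTPM (6.25 and 3.16 with all libraries), that of Ifi47 2.48 and 2.59 (3.84 and 4.48), that of Gbp2 3.03 and 1.26 (3.30 and 1.78) and that of Irf7 0.20 and 2.80 (1.26 and 4.20). Oas1a was at 0.39 and 0.95 and Slfn2 at 0.44 and 0.60. Samhd1 was at 0.02 and -0.35, Sp100 at -0.02 and 0.17, Ifi27l2a at -0.02 and 0.40, and Oasl2 at -0.10 and 0.73. Cxcl10 in TASTPM was at -7.45, with both remaining libraries at 0. With the marker score of each library as a covariate in place of leaving libraries out, the median of the Ifit/Oas/Mx type was 0.08 in WT and 0.16 in TASTPM.

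**Figure D5:**
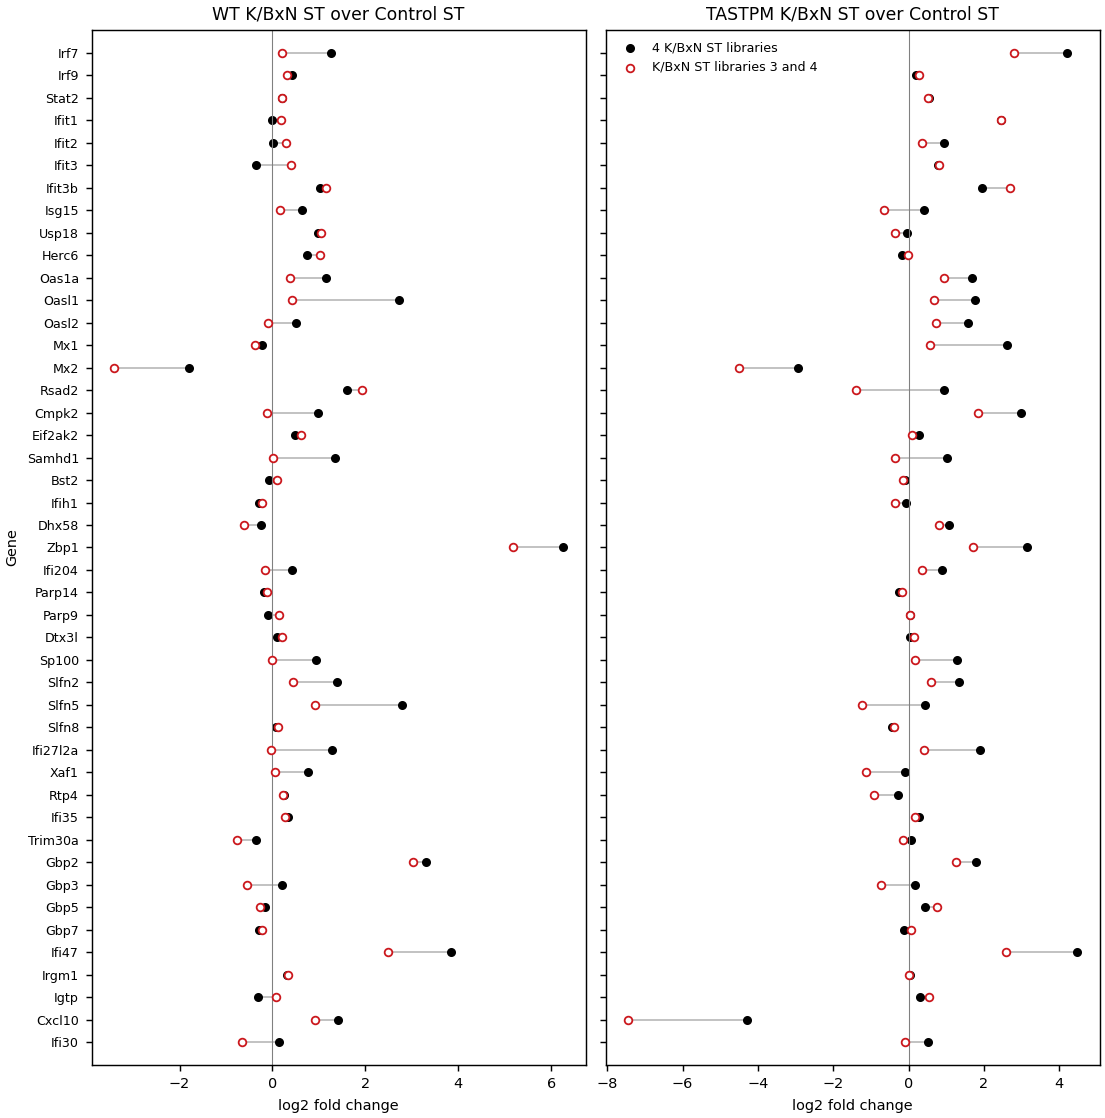
Log2 fold change of K/BxN ST against Control ST (x axis) for each of the 45 members (y axis), in WT and in TASTPM. Filled points are the fit with all 4 K/BxN ST libraries, and open points the fit with libraries 3 and 4 only. Zbp1 in WT stays high, at 6.25 and 5.17, whereas Samhd1 and Slfn2 drop toward 0, and Cxcl10 in TASTPM moves from -4.30 to -7.45.

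Genes upstream of the members were followed with lists of ligands, receptors, signalling proteins and nucleic acid sensors, of which 29 were tested. The ligands Ifnb1, Ifna1, Ifna2, Ifna4, Ifna5 and Ifng were not analysed here. In WT, 2 of 29 were higher after K/BxN ST at an unadjusted p below 0.05 (Cgas, a DNA sensor, log2 fold change 1.34, and Tyk2, 0.69), against 4.77% of all genes, and 1 was lower, against 2.36% (Sting1, the adaptor that acts after Cgas, -0.49). In TASTPM, Socs3, a feedback inhibitor of cytokine receptors, had the one p below 0.05 (log2 fold change 2.20, with 2.62% of all genes higher at that level), at 669.6, 329.7 and 933 normalized counts in Control ST and 5708, 1611, 9531 and 620.5 in K/BxN ST, with libraries 1 and 3 far above the rest. None was called in either serum comparison, the limma adjusted p being 0.605 or more there. Ifnar1, a subunit of the type I interferon receptor, had log2 fold changes of 0.21 in WT and 0.11 in TASTPM. Under Control ST, with sex-linked scores that differed as given above, Cgas was higher in TASTPM than in WT at that level (log2 fold change 1.52, limma adjusted p = 0.742), at 313 to 563 normalized counts against 58.1 to 224. Adar, the RNA editing enzyme, had an unadjusted p below 0.05 for TASTPM against WT under Control ST (log2 fold change -0.96, limma adjusted p = 0.590) and under K/BxN ST (-0.61, limma adjusted p = 1.00), at 471 to 850 normalized counts in TASTPM and 835 to 1260 in WT. The genotypes did not overlap for Adar under either serum, and no share over all genes was computed for this. Cgas and Adar were the only ones of the 29 at that level under Control ST, and Adar the only one under K/BxN ST. Of all genes, 5.57% and 1.91% reached that level, in either direction.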

How the data were processed

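The deposited table holds 1 normalized count per gene and library, a signal that the authors made by dividing the read count by 1 factor per library. Per the submitters' processing notes and the study's methods, reads were checked with FastQC 0.11.9, aligned to GRCm39 with HISAT2 2.1 and counted with featureCounts 1.5.2, with normalization by DESeq2. Libraries were prepared from amplified cDNA, without molecular identifiers, so intervals and floors cover counting error only. All values were whole multiples of 1 read per library (100% within 0.01), which gave back the reads, and 7 repeated entries of 14336 were dropped. Columns of other samples numbered 0. For 10 libraries the line above the column names gives the group, but the sample is not known.

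Because the unit was a normalized signal and not raw counts, the main test was limma 3.58.1 (R 4.3.3) with a trended prior variance on log2(normalized count + 1), with 1 fit of the 4 groups. The filter was at least 10 reads in at least 7 libraries. edgeR 4.0.16 (quasi-likelihood) and DESeq2 1.42.0 on the recovered reads, other scalings, pseudocounts, filters and variance models, marker and sex-linked covariates, and leaving out libraries were alternatives. The libraries left out for marker reads were those above 5 times the highest Control ST share (0.0165%). Scripts were tested on simulated data.

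The members, the marker lists and the pathway lists were chosen with earlier results of these data known. Members were given by library where they had the smallest p (6 per serum comparison, 3 for each other comparison, and 3 of the Gbp/Irgm type), where their groups did not overlap, or where they were among the 4 with the highest mean normalized count, which is not scaled by length. Promoters were taken in order of the smallest serum p. Other members named with values were chosen after their values were seen. A pathway gene and a transgene are not reported here. Of the other marker lists, the 6 T and NK cell genes were not analysed here, and B cell, dendritic cell, endothelial, astrocyte, oligodendrocyte, neuron and red cell markers each took at most 0.242% of any library. Gene positions are those of GRCm39, whereas promoter windows are those of RefSeq GRCm38.p6, and no coordinate was converted. Shared sequence between genes was counted as identical 100-base words of exons.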

Additional observations from a re-analysis of the deposited data

Results flagged for a closer look

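Among 44 tests of a named member in a group of 4 libraries, 1 library stood apart from the others of its group by Dixon's criterion. Dhx58 was at 564 normalized counts in TASTPM K/BxN ST library 2, while the other 3 libraries of that group ran upward from 266, and the gap to the nearest library was 0.835 of the range, against a critical value of 0.829. About 1 in 20 such groups would be marked by chance. That library is 1 of the 4 with a high neutrophil and monocyte marker share. The part of that share in the value was not tested.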

How the results depend on the processing

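No paired analysis was possible because the replicate numbers in the labels run on across the groups and are not shared between them. Each alternative planned gave a value, except for members that the filter of 10 reads in every library removed. The type medians for TASTPM kept their sign in the settings given here, whereas those of the Gbp/Irgm type in WT, and of both types in the other comparisons, changed sign in some. In WT, 1 member was called by DESeq2 without the filter, the median of the Gbp/Irgm type was -0.17 where 10 reads were required in every library (5 members left), and leaving out 1 library gave 0 to 1 members called and medians of 0.32 to 0.62 (Ifit/Oas/Mx) and -0.11 to 0.37 (Gbp/Irgm). In TASTPM, the Ifit/Oas/Mx median was 0.16 with the marker covariate and 0.16 without the libraries of high marker share, and leaving out 1 library gave 0 called, 0.12 (without Control ST library 3) to 1.03 and 0.07 to 0.43. For the difference between the genotypes, leaving out 1 library gave 0 called, -0.30 to 0.29 and -0.22 to 0.57. TASTPM against WT under Control ST gave 0 called, -0.18 to 0.29 and -0.43 to 0.27, and 0.34 for the Gbp/Irgm type with the sex-linked covariate. Under K/BxN ST the ranges were 0 called, -0.37 to 0.05 and -0.11 to 0.30. The members at an unadjusted p below 0.05 went from 5 to 2 in WT without K/BxN ST library 2 and to 3 without K/BxN ST library 1 or Control ST library 3, and in TASTPM from 8 to 1 without Control ST library 3, to 5 without K/BxN ST library 1 and to 12 without Control ST library 1. Over all 12645 genes, 603 were higher and 299 lower at that level in WT with all libraries. They numbered 430 and 218, 405 and 210, and 852 and 278 in the WT fits just named, in order. In TASTPM they numbered 331 and 202 with all libraries, and 342 and 176, 202 and 142, and 326 and 174 in its fits. For the difference between the genotypes the count of members was 1 with all libraries, 0 to 5 without 1 library (5 without TASTPM Control ST library 1, 4 without WT Control ST library 2) and 4 with the sex-linked covariate. Under Control ST it was 2, 2 to 9 (9 without TASTPM Control ST library 1) and 7, and under K/BxN ST 1, 0 to 2 and 1. All genes gave 179 higher and 206 lower for the difference between the genotypes with all libraries. Without TASTPM Control ST library 1 they gave 181 and 197, and with the covariate 206 and 221. Under Control ST they gave 431 and 273, 389 and 297, and 441 and 355 in the same order. Of single members, Zbp1 in WT was the one that passed the threshold under an alternative. Over all genes, DESeq2 with the filter called 118 higher and 9 lower in WT and 14 and 2 in TASTPM, against 1 and 0 by limma and 0 by edgeR, and without the filter 261 and 14 in WT and 84 and 4 in TASTPM. For the difference between the genotypes DESeq2 called 4 and 8 with the filter and 14 and 22 without it, and for TASTPM against WT under Control ST 33 and 8 and then 63 and 21, against 0 by limma. The cause of these differences was not tested. With 3 or 4 libraries a group and low counts in many members, differences of the size seen within Control ST could not be told from no difference.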
